A study of Mus musculus with 6 samples.

Results

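In lists of RNA 3′ ends from mouse embryonic stem cells, each position carries the hexamer taken as its poly(A) signal. Positions whose hexamer is AAAAAA, called all-A positions here, were selected by that hexamer alone. After the lists of the 6 libraries were pooled and chromosome M was left out, 111795 of 2333467 distinct positions (4.79%) were all-A. Of the 36 hexamers in the lists, this one was the third commonest, after AATAAA, with 946527 positions, and one other. Another 197 all-A positions on chromosome M were left out.

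The cells were V6.5 embryonic stem cells, a line of mixed C57BL/6 and 129 background, and the extracted RNA was selected for poly(A). The 3 groups, with 2 libraries each, were untreated cells, cells given an AMO (antisense morpholino oligonucleotide) of scrambled sequence and cells given an AMO against U1, under published conditions of U1 inhibition. RNA was cut with RNase T1 and reverse transcribed, and the cDNA was circularised, amplified by PCR and sequenced. Neither the source of the replicates nor a molecular identifier is described, so p-values measure the spread between these libraries, and intervals cover counting error only. The libraries held between 15752080 and 62257923 reads. By the read names, replicate 1 of both AMO groups was sequenced together in one lane, and replicate 2 of both in a second run on 2 lanes. The untreated libraries had 2 further runs, and that of replicate 1 was on another instrument. Untreated cells and their runs cannot be told apart. The labelled cell type was not checked, since positions could not be assigned to genes of the build.

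Pre-mRNA is cleaved a short distance downstream of a poly(A) signal, canonically AATAAA in DNA letters, which the cleavage and polyadenylation specificity factor binds, and a poly(A) tail is then added. U1 small nuclear ribonucleoprotein recognises 5′ splice sites and also suppresses cleavage at signals within transcribed regions. Stretches of A in the genome are a known difficulty for 3′ end maps: a primer meant for the tail can anneal to A-rich RNA inside a transcript, and a genomic A-stretch next to a site hides where the tail begins. A-rich hexamers can also act as weak variants of the signal. All-A positions are therefore candidates for priming inside A-rich RNA, and whether any of them arose that way was not tested.

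The DNA around a position could be read in part, because hexamers listed for neighbouring positions overlap. The sequences below belong to all-A positions that recur in the results and show how far the run of A was known to go. Each is written 5′ to 3′ on the strand of the RNA, capitals mark the deposited hexamer, and lower-case letters come from hexamers listed for neighbouring positions. Coordinates are mm9, 1-based.
chr17:82756878, minus strand, hexamer 7 nt away: aaaaAAAAAA
chr12:41810726, minus strand, hexamer 7 nt away: aaAAAAAA
chr5:19161463, plus strand, hexamer 7 nt away: AAAAAAta
chr2:165899420, minus strand, hexamer 21 nt away: aaaaAAAAAAt
chr5:144692311, plus strand, hexamer 23 nt away: aaaaAAAAAAga
chr11:113524493, minus strand, hexamer 28 nt away: aaaaaaAAAAAA

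At chr17:82756878 the run of A was at least 10 nt long, and the last sequence shows a run of 12 nt, the longest that could be read at any member. At 7 of the 10 strongest positions only the 6 letters of the hexamer were known. The letters after the hexamer were known for few members. Of the 28705 members 7 nt from their hexamer, 837 had a known next base, which was T in 63.7%, G in 33.1%, C in 3.23% and, as the choice of the nearest run of 6 A requires, A in none. The base after that was A in 85.9% of the 866 members where it was known. These members were not a random draw, because a letter could be read only where another listed hexamer, itself rich in A, covered it.

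The lists give 2 further values for each position. One is the distance in nt from the hexamer to the position, from 6 to 40, called the spacing here. The other is a whole number from 0 to 10 that the sources used here do not explain. Compared with the readable letters, it changed from one position to the next as the number of A in the 20 nt that begin one spacing after the first letter of the hexamer would. In all 1021 pairs of adjacent positions where both ends of the window were known, the number changed by exactly the A bases gained and lost. Windows of other lengths from 10 to 30 nt were contradicted by between 21.7% and 25.6% of pairs, and the 20 nt window by none of 20939. No window was known in full, with at most 16 letters readable, so the value itself was compared only with these limits: at none of the positions did the known A exceed it. It is called the downstream A count here. No position with a count over 10 is in the lists.

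The lists also show which hexamer was chosen when several were present. Between adjacent positions, the entry changed from another hexamer to all-A in 1085 pairs. In 1069 of them the other hexamer had been at the limit of 40 nt, and in the remaining 16 an all-A hexamer came newly into range at 6 nt. In 1017 pairs the other hexamer stood at the limit and the A run was nearer at the next position. That other hexamer was TAAAAA in 720 pairs, AAGAAA in 78 and AATAAA in 62. The entry left all-A in 549 pairs, in 336 of them with all-A at 40 nt and in 213 with another hexamer newly at 6 nt. In these pairs the entry thus mostly passed to all-A as another hexamer went out of range. The nearest place in a run was used, so the spacing of a longer run counts from its end.

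All-A positions lay close to their hexamer. The median spacing was 9 nt, against 22 nt for AATAAA. As many as 56658 members, or 50.7%, had a spacing of 6 to 9 nt, and 25.7% stood at exactly 7 nt. The share at 6 to 9 nt was the highest of all 36 hexamers, and the next, AAAAAG, had 34.2%. For AATAAA it was 2.98%. Another 24508 members had a spacing of 15 to 25 nt, the range that holds 56.7% of AATAAA positions.

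**Figure D1:**
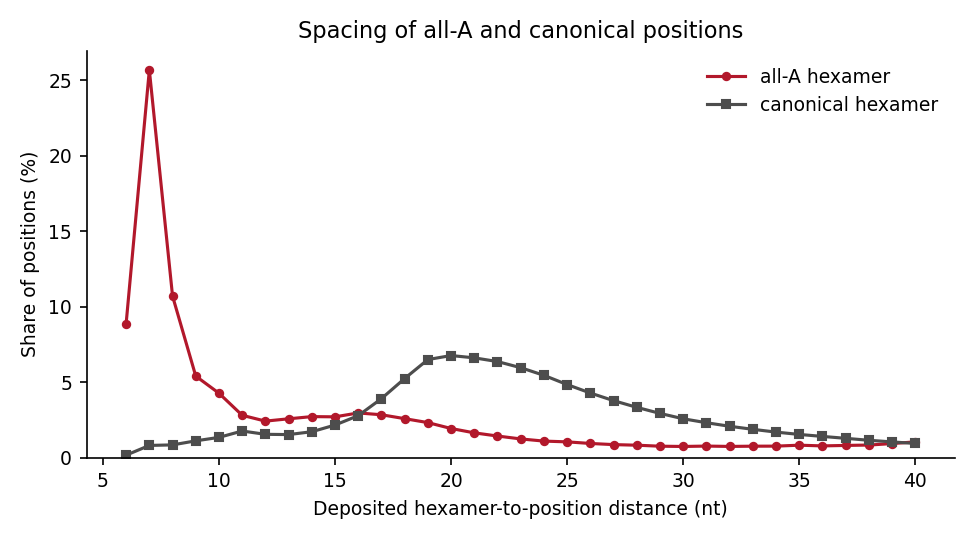
Share of distinct positions (%, vertical axis) at each deposited hexamer-to-position distance (nt, horizontal axis), for all-A positions (red circles) and AATAAA positions, labelled canonical hexamer (grey squares), pooled over the 6 libraries. All-A positions peak at 7 nt with 25.7% of members, while AATAAA positions form a broad hump around their median of 22 nt.

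Within each library the mean spacing over distinct all-A positions was below that of all other hexamers, with a difference of -9.18 nt on average (SD 1.68, n = 6 libraries). It was lower in 6 of 6 libraries, with differences from -12.0 to -6.79 nt (two-sided exact sign-flip permutation test, p = 0.03125, the smallest that 6 pairs can give, and 0.03125 after Benjamini-Hochberg adjustment over 5 measures). Positions recur between libraries, so the 6 values are not independent genomic samples, here and in the other measures tested this way. In untreated replicate 1 the mean was 16.4 nt for all-A positions and 23.2 nt for the others. In untreated replicate 2 it was 10.8 nt against 22.8 nt. The 4 AMO libraries lay between 13.7 and 14.4 nt for all-A and between 23.0 and 23.1 nt for the others. The other hexamers of exactly 5 A, 13 kinds with 326363 positions, are the nearest in composition. Against them the all-A spacing differed by -8.60 nt (SD 1.70, exact p = 0.03125, adjusted 0.0391).

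The DNA downstream of all-A positions was richer in A. Their downstream A count averaged 6.03, the highest of the 36 hexamers, and the next were AAAAAC with 5.95 and AAAAAG with 5.81. Within libraries the all-A mean ran from 5.76 in untreated replicate 1 to 6.08 in untreated replicate 2, and that of the other hexamers from 4.94 to 5.13. The difference was 0.888 A bases (SD 0.0743, n = 6), higher in 6 of 6 libraries (exact sign-flip permutation p = 0.03125, adjusted 0.03125). Against the other hexamers of 5 A it was 0.447 (SD 0.0636, exact p = 0.03125, adjusted 0.0391). At the largest count in the lists, 10, stood 7.26% of all-A positions and 4.36% of all others. These values were not matched for spacing. At 6 to 9 nt the count averaged 6.29 for all-A, 6.45 for AATAAA, 6.09 for the hexamers of 5 A and 6.14 for all other hexamers. At 15 to 25 nt it was lower in each set, with 5.68, 5.17, 5.45 and 5.12, in the same order.

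All-A and other positions also differed in how reads followed the downstream A count. Among all other hexamers, mean reads per position, pooled over the libraries, were 207 at a count of 0, 238 at 1 and 23.7 at 10. Among all-A positions the mean was 5.90 reads at a count of 0, 15.5 at 1 and 6.46 at 10, and among the other hexamers of 5 A it was 20.3, 26.98 and 6.12. These are descriptions over positions, which are not replicates.

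**Figure D2:**
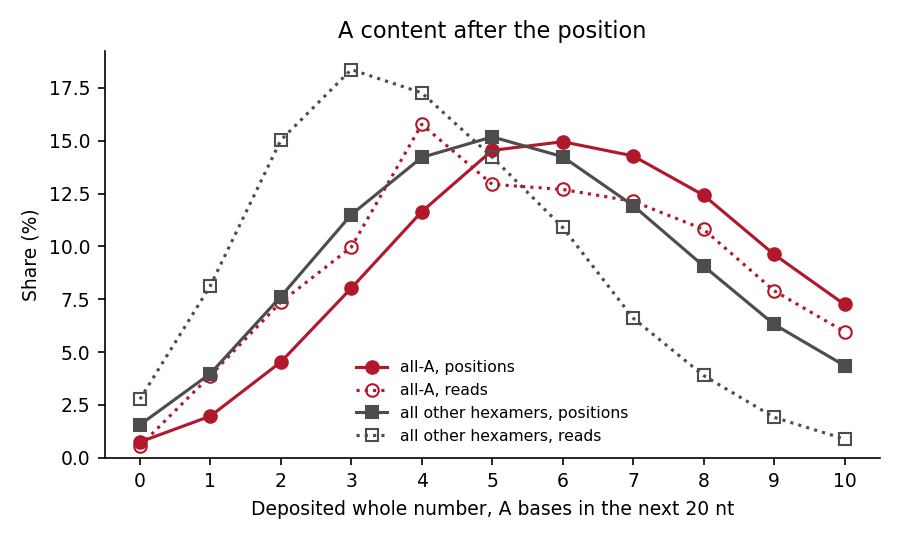
Share (%, vertical axis) of distinct positions (solid lines, filled points) and of reads (dotted lines, open points) at each downstream A count from 0 to 10 (horizontal axis), for all-A positions (red) and all other hexamers (grey), pooled over the 6 libraries. Reads of the other hexamers lie at low counts, with a peak at 3, and all-A positions peak at 6, with 7.26% of them at the limit of 10.

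All-A positions held few reads. Pooled over the libraries their mean was 7.87 reads, the lowest of the 36 hexamers, against 116 for all others. The next lowest were AAAAAG with 8.09 reads and AAAATA with 8.66, and AATAAA had 193. In the individual libraries the all-A mean was 4.10 and 6.75 reads in untreated libraries, 4.74 and 4.18 in scrambled AMO libraries, and 4.28 and 4.14 in U1 AMO libraries, for replicates 1 and 2. The means of the other hexamers were 52.9 and 129 reads, 34.3 and 62.0, and 23.4 and 49.8, in the same order. The all-A means varied little although the libraries differ in depth, and in every library they were lower than the others. The log2 ratio of the means was -3.45 (SD 0.676, lower in 6 of 6 libraries, exact sign-flip permutation p = 0.03125, adjusted 0.03125). Against the other hexamers of 5 A it was -0.80 (SD 0.439, exact p = 0.03125, adjusted 0.0391). These comparisons were not matched for spacing. At 6 to 9 nt the pooled mean was 7.62 reads for all-A, 7.19 for the hexamers of 5 A and 14.5 for all other hexamers. At each longer spacing class the all-A mean was below both, with 9.10, 16.8 and 173 reads at 15 to 25 nt.

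A single read supported most all-A positions in each library. The share with 1 read ran from 52.9% in untreated replicate 2 to 65.7% in scrambled AMO replicate 2, and among the other hexamers from 19.9% to 48.2%. It was higher by 22.3 percentage points (SD 6.17, 6 of 6 libraries, exact sign-flip permutation p = 0.03125, adjusted 0.03125). Against the hexamers of 5 A the difference was 6.72 points (SD 5.02, adjusted p = 0.0391). Spacing was not matched here either. Pooled over the libraries, 57.0% of all-A positions at 6 to 9 nt had 1 read in total. For the hexamers of 5 A at that spacing it was 62.7%, and for all other hexamers 58.4%. At 15 to 25 nt the shares were 61.3%, 53.6% and 41.1%, in the same order.

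Reads were less concentrated on strong positions among all-A than among other hexamers. Of 879388 all-A reads, 52.2% lay at the strongest 1% of members, against 78.6% for all other hexamers, and the 941 strongest all-A positions made up 50% of the reads. The strongest had 8482 reads over the 6 libraries, against a median of 1. Members with at least 50 reads numbered 2266, or 2.03%, and among all other hexamers 8.40% of positions reached that number.

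The 10 strongest all-A positions by mean CPM (counts scaled to one common library total) were of 2 kinds. Position 1, chr17:82756878 on the minus strand, with its hexamer 7 nt away and a downstream A count of 4, had 0 and 1274 reads in untreated libraries, 3274 and 305 in scrambled AMO libraries, and 2033 and 712 in U1 AMO libraries, for replicates 1 and 2. In CPM this was 0 and 21.1, 122 and 4.90, and 129 and 12.3. Both libraries of the replicate 1 AMO run were high and the groups overlapped. Position 2, chr19:37008277 on the minus strand, also 7 nt from its hexamer and with an A count of 10, had 0 and 12.5 CPM in untreated libraries, 122 and 3.61 in scrambled AMO libraries, and 128 and 6.18 in U1 AMO libraries. Position 10, chr14:8517047 on the plus strand, again at 7 nt, had 0 and 12.2, 29.2 and 2.67, and 31.9 and 4.83 CPM. These 3 positions had no read in untreated replicate 1, where a count of 0 allows up to 0.0778 CPM (3 reads).

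Position 8, chr12:41810726 on the minus strand, the fourth at 7 nt, was read in every library, with 9.02 and 14.04 CPM in untreated libraries, 33.0 and 7.13 in scrambled AMO libraries, and 41.3 and 11.1 in U1 AMO libraries. It too was highest in the 2 libraries of the replicate 1 AMO run. The fifth strongest at 6 to 9 nt, chr5:19161463 on the plus strand, chosen after its values were seen, had 35.5 and 37.1 CPM in those libraries and between 0.700 and 2.003 CPM in the other four.

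The other 6 strong positions stood 17 to 28 nt from their hexamer and moved less between the AMO runs. Over all 6 libraries this did not hold for each of them. The range was 4.87 to 27.7 CPM at chr7:135029509, beside 7.13 to 41.3 at chr12:41810726, which is 7 nt from its hexamer. At chr2:165899420, minus strand, 21 nt away, CPM was 35.0 and 55.4 in untreated libraries, 21.9 and 24.8 in scrambled AMO libraries, and 21.2 and 22.7 in U1 AMO libraries. Both untreated libraries were above the 4 AMO libraries. The same held at chr7:135136148, minus strand, with 31.9 and 39.4 CPM in untreated libraries and between 18.98 and 22.7 in the others. It held as well at chr17:25001393, plus strand, with 27.4 and 52.3 CPM against 14.3 to 23.0. At chr1:155756851, plus strand, the order was the opposite, with 11.3 and 20.4 CPM in untreated libraries and 37.1 to 49.1 in the 4 AMO libraries. In the edgeR fit of all 6 libraries described further on, none of the 10 strongest positions was called in any comparison.

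The remaining 2 strong positions were chrX:132704864 and chr7:135029509. At chrX:132704864, minus strand, CPM was 7.96 and 24.2 in untreated libraries, 31.3 and 23.6 in scrambled AMO libraries, and 31.2 and 19.5 in U1 AMO libraries, so the groups overlapped. At chr7:135029509, plus strand, it was 4.87 and 5.95, 8.42 and 19.9, and 27.7 and 20.8, with the 4 AMO libraries above both untreated ones and the 2 U1 AMO libraries the highest.

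**Figure D3:**
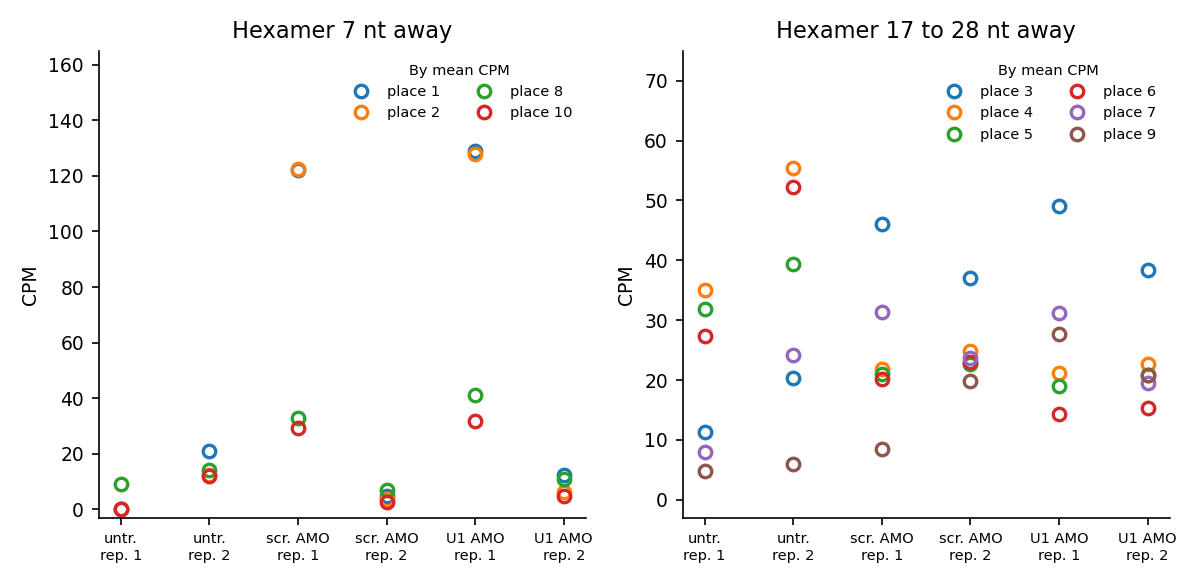
CPM (vertical axis) of the 10 strongest all-A positions in each of the 6 libraries (horizontal axis), with one colour per position, numbered by mean CPM, at 7 nt from the hexamer (left panel) and at 17 to 28 nt (right panel). At 7 nt the replicate 1 AMO libraries are the highest for each position, and 3 of the 4 have 0 CPM in untreated replicate 1, while at 17 to 28 nt all 6 positions have reads in every library.

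All-A positions were found in other libraries less often than positions of all other hexamers. Of the members, 68.7% were seen in 1 library and 1.93% in all 6, against 50.99% and 13.3% of AATAAA positions and 70.2% and 3.02% of the other hexamers of 5 A. Per library, the share of positions also found in another one differed by -14.7 points between all-A and all other hexamers (SD 4.60, lower in 6 of 6 libraries, exact sign-flip permutation p = 0.03125, adjusted 0.03125). Against the hexamers of 5 A it differed by 0.387 points (SD 2.97, lower in 2 of 6, exact p = 0.719), less than the spread between libraries. Each share counts presence in the other libraries, so a shared position enters several values, and the AMO libraries share runs.

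Within classes of total reads the picture was not the same at each depth. Among positions with 2 reads in total, 52.6% of all-A positions had them in 2 different libraries, against 43.3% for AATAAA and 37.7% for the hexamers of 5 A. Among positions with 11 to 50 reads, 15.0% of all-A positions were found in all 6 libraries, against 21.2% and 14.8%. Among positions with over 50 reads, 50.9% of all-A positions were found in all 6 libraries, against 89.0% and 75.4%. This last class has no upper limit, so read numbers within it were not equal. Over all positions, the 99th percentile was 103 reads for all-A and 1572 for all other hexamers. Strong all-A positions were thus often missing from one library, and 46.3% of them were found in 5.

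At short spacings the library in which they were missing was mostly untreated replicate 1. Of 1164 members 6 to 9 nt from their hexamer with at least 50 reads, 782 (67.2%) had no read there. In the other libraries 0.172% to 3.35% of the same positions had none. The share without a read in untreated replicate 1 was smaller at longer spacings, with 35.6% of 149 members at 10 to 14 nt, 7.29% of 494 at 15 to 25 nt and 1.53% of 459 at 26 to 40 nt. At these last 2 spacings other libraries lacked more, with 10.9% and 7.84% in untreated replicate 2 and 9.92% and 10.9% in U1 AMO replicate 1. AATAAA positions at 6 to 9 nt lacked reads there in 3.35% of 1046 cases. TAAAAA positions lacked them in 35.9% of 1018 cases at 26 to 40 nt and in 2.14% of 140 at 6 to 9 nt, so there the share was larger at the longer spacing. Untreated replicate 1 held 38569397 reads, more than either replicate 1 library of the AMO groups, so it was not the shallowest. Whether its list had been filtered in another way was not tested.

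**Figure D4:**
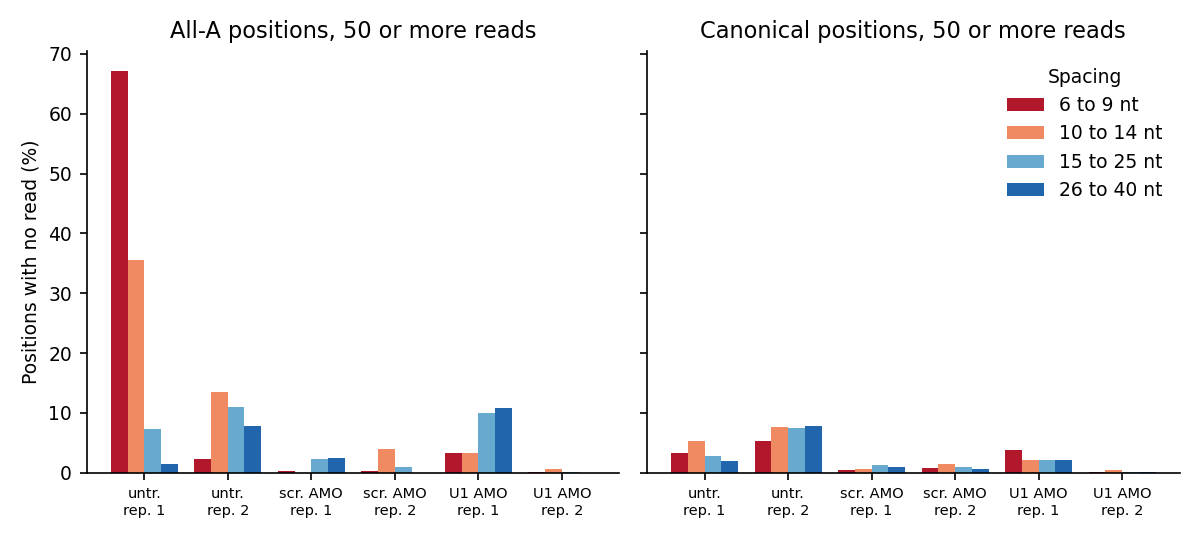
Share of positions with no read (%, vertical axis) in each of the 6 libraries (horizontal axis), among all-A positions (left panel) and AATAAA positions, titled canonical (right panel), that have at least 50 reads over all libraries, with one colour per spacing class. The bar of 67.2% for all-A positions at 6 to 9 nt in untreated replicate 1 stands above all others, and the AATAAA bars for that library reach 5.24%.

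Variation between libraries differed by spacing class. Summed over members at 6 to 9 nt, CPM was 436 and 1944 in untreated libraries, 3543 and 1067 in scrambled AMO libraries, and 3945 and 1271 in U1 AMO libraries, for replicates 1 and 2. The highest was 9.04 times the lowest. At 10 to 14 nt the sums lay between 87.4 and 538 CPM, with a ratio of 6.15. At 15 to 25 nt the sums were 624 and 832, 984 and 891, and 1012 and 878 CPM, with a ratio of 1.62. At 26 to 40 nt they lay between 601 and 698 CPM, with a ratio of 1.16. AATAAA positions at 6 to 9 nt had sums from 1691 to 2714 CPM, a ratio of 1.61. For TAAAAA the ratio was 1.43 at 6 to 9 nt and 2.71 at 26 to 40 nt.

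**Figure D5:**
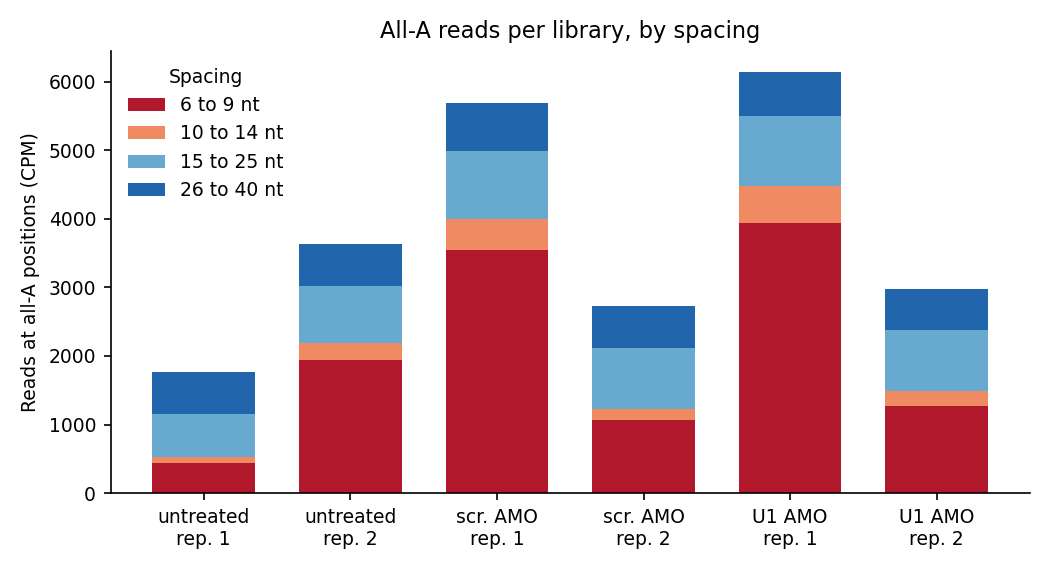
Reads at all-A positions (CPM, vertical axis, stacked bars from 0) in each of the 6 libraries (horizontal axis), divided by spacing class. The part at 6 to 9 nt ranges from 436 to 3945 CPM and is largest in the replicate 1 libraries of both AMO groups, while the part at 26 to 40 nt stays between 601 and 698 CPM.

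Libraries of one run resembled each other at all-A positions more than libraries of one group. Over the 2266 members with at least 50 reads, Pearson's r of log2(CPM + 1) was 0.92 between the replicate 1 libraries of the scrambled and U1 AMO and 0.93 between the replicate 2 libraries. Between the 2 scrambled AMO libraries it was 0.63, between the 2 U1 AMO libraries 0.66 and between the 2 untreated libraries 0.55. Pairs that shared neither run nor group varied widely, and some were above every pair of one group. Their lowest r was 0.26, between untreated replicate 1 and U1 AMO replicate 1. The highest was 0.78, between untreated replicate 1 and scrambled AMO replicate 2. These are correlations across positions of libraries that share runs, given as a description.

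The share of reads at all-A positions was 0.178% (95% Wilson interval 0.177 to 0.180) and 0.364% (0.362 to 0.366) in untreated libraries. It was 0.577% (0.574 to 0.580) and 0.275% (0.274 to 0.277) in scrambled AMO libraries. In U1 AMO libraries it was 0.628% (0.624 to 0.632) and 0.301% (0.300 to 0.303). Group means were 0.271% (SD 0.131, n = 2), 0.426% (SD 0.213, n = 2) and 0.465% (SD 0.231, n = 2). The replicate 1 AMO libraries were highest, and the groups overlapped.

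In U1 AMO libraries the share of reads was 0.0381 points above that in scrambled AMO libraries (two-sided exact permutation test of 2 against 2 libraries, p = 0.667, adjusted over 20 such comparisons 0.889). Such an exact test cannot go below p = 0.333. Within the run of replicate 1 the difference was 0.0504 points and within that of replicate 2 it was 0.0259, so U1 AMO was higher in 2 of 2 runs. Without U1 AMO replicate 1 or scrambled AMO replicate 2 the sign of the group difference turned, to -0.125 and -0.113. The difference from untreated cells was 0.155 points for the scrambled AMO and 0.193 for the U1 AMO (exact permutation p = 0.667 and adjusted 0.889 for each).

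Counted as distinct positions, all-A made up 2.26% (2.22 to 2.29) and 6.53% (6.46 to 6.60) of the positions in untreated libraries, 4.03% (3.99 to 4.07) and 3.93% (3.89 to 3.97) in scrambled AMO libraries, and 3.33% (3.29 to 3.37) and 3.51% (3.47 to 3.54) in U1 AMO libraries. The lowest and the highest library were both untreated. In U1 AMO libraries the share differed from that in scrambled AMO libraries by -0.563 points, with -0.702 in the run of replicate 1 and -0.424 in that of replicate 2, and the 2 groups did not overlap (exact permutation p = 0.333, the smallest this design allows, adjusted 0.889). The share of reads moved the other way. After every library was thinned to 15752080 reads, the shares of positions were 1.81% and 4.18%, 3.68% and 2.87%, and 3.33% and 2.69%, and the groups of U1 AMO and scrambled AMO overlapped.

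The spacing of all-A reads was also set beside the groups. Of the all-A reads, 24.6% and 53.6% in untreated libraries, 62.4% and 39.1% in scrambled AMO libraries, and 64.2% and 42.7% in U1 AMO libraries lay 6 to 9 nt from the hexamer. In U1 AMO libraries the share was 2.74 points above that in scrambled AMO libraries, by 1.86 and 3.62 within runs (exact permutation p = 0.667, adjusted 0.889). The mean spacing weighted by reads differed by -0.666 nt between U1 AMO and scrambled AMO libraries (adjusted exact permutation p = 0.889), and the downstream A count weighted by reads was 0.0784 higher (adjusted p = 0.889).

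Individual positions were tested with the quasi-likelihood test of edgeR on the read counts of every position of every hexamer. The filter on low counts kept 228903 positions, of which 3450 were all-A. For U1 AMO against scrambled AMO 0% of all tested positions and no all-A position had an adjusted p under 0.05, while 21 all-A positions (0.609%), each higher in U1 AMO libraries, had an unadjusted p under 0.05, against 4.31% of all positions. DESeq2 called 4 all-A positions (0.116%) and 1.21% of all. For scrambled AMO against untreated 0% of all positions and no all-A position were called by edgeR, 316 all-A positions (9.16%) and 9.68% of all had an unadjusted p under 0.05, and DESeq2 called 33 all-A positions (0.957%) and 0.785% of all. The median log2 fold change of the all-A positions was 0.13 in the first comparison and 0.69 in the second, beside -0.02 and 0.12 over all tested positions.

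For U1 AMO against untreated, edgeR called 0.632% of all positions (0.623% higher and 0.00961% lower) and 3 all-A positions, all of them higher in U1 AMO libraries. At chr8:37676145, minus strand, 21 nt from its hexamer and with a downstream A count of 4, there were 40 and 133 reads in U1 AMO libraries and none in the other 4 libraries. Against a floor of 3 reads over both untreated libraries it was at least 77.5-fold higher. It passed the filter on low counts through the U1 AMO libraries alone, so it had to differ, and its p-value is not given. At chr1:155756850, plus strand, next to the strong position named above, CPM was 1.32 and 0.976 in untreated libraries, 6.22 and 5.96 in scrambled AMO libraries, and 7.62 and 8.56 in U1 AMO libraries. The 4 AMO libraries lay above both untreated ones, and its log2 fold change was 2.80 (SE 0.447, edgeR adjusted p = 0.0457). The last, chr4:125669341 on the minus strand, 20 nt from its hexamer, had a mean under 1 CPM over the 4 libraries compared and was named after its values were seen. It had 1 and 4 reads in untreated libraries, 29 and 31 in scrambled AMO libraries, and 29 and 105 in U1 AMO libraries, a log2 fold change of 5.10 (SE 0.786). It passed the filter on low counts through the AMO libraries alone, so its p-value is not given. All 3 called positions stood 16 to 21 nt from their hexamer. The median log2 fold change of all-A positions was 0.80, against 0.14 over all tested positions.

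Both comparisons with untreated cells share the untreated libraries, and their values rested on which of these was used. Without untreated replicate 2 the median log2 fold change of all-A positions was 2.93 for the scrambled AMO and 3.14 for the U1 AMO, beside 0.11 and 0.14 over all positions, and 5 and 58 all-A positions were called (0.133% and 1.54%, against 0.246% and 1.53% of all positions). Without untreated replicate 1 the medians were 0.23 and 0.31, below the 0.43 and 0.49 of all positions, and 105 and 291 all-A positions were called (1.90% and 5.27%, against 5.29% and 14% of all positions). The all-A positions thus lay above or below the median of all positions depending on the untreated library that was kept.

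Since same-numbered AMO libraries shared a run, the 4 AMO libraries were also fitted with the replicate number as a term. The spread shared over positions (common dispersion) was 0.0246 in this fit and 0.303 in the fit of all 6 libraries, and 1 residual degree of freedom remains, so the shared spread weighs heavily in its p-values. In it 8.08% of 193555 positions were called for U1 AMO against scrambled AMO, 7.05% higher and 1.03% lower. Of 2767 all-A positions tested, 102 (3.69%) were called, 75 higher and 27 lower in U1 AMO libraries, a smaller share than of all positions.

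The called all-A positions differed by spacing. At 6 to 9 nt, 38 of 1580 tested members rose (2.41%) and 6 fell (0.380%), and at 10 to 14 nt 5 of 222 rose (2.25%) and none fell. At 15 to 25 nt 24 of 522 rose (4.60%) and 11 fell (2.11%), and at 26 to 40 nt 8 of 443 rose (1.81%) and 10 fell (2.26%). All other hexamers rose in 5.61% of tested positions at 6 to 9 nt, 5.63% at 10 to 14 nt, 7.97% at 15 to 25 nt and 5.27% at 26 to 40 nt. They fell in 0.467%, 0.472%, 1.23% and 0.729%, in the same order. Of the 24 rises at 15 to 25 nt, 13 had no read in either scrambled AMO library, and of the 38 at 6 to 9 nt none did. Among all other hexamers, 2456 of 9743 rises at 15 to 25 nt and 27 of 168 at 6 to 9 nt had no such read. A position read in 1 group could pass the filter through that group, so these counts describe the called positions and are no test of spacing. The 24 rises lay in 18 separate runs of A. Median log2 fold changes were 0.33 at 6 to 9 nt, 0.45 at 10 to 14 nt, -0.04 at 15 to 25 nt and -0.10 at 26 to 40 nt, beside -0.01 over all positions tested.

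Among called positions whose mean over the 4 AMO libraries reached 1 CPM, the largest rises were at 21 and 24 nt. chr8:37676145 was at least 69.7-fold higher in U1 AMO libraries than the floor of 3 reads over both scrambled AMO libraries. chr5:130698724, plus strand, had 46 and 66 reads in U1 AMO libraries and none in the other 4 libraries, at least 45.2-fold higher. These 2 positions had no read in scrambled AMO or untreated libraries and passed the filter through the U1 AMO libraries alone, so their p-values are not given. The next 3 lay 7 to 9 nt from the hexamer and had reads in both groups. At chr7:90023072, plus strand, CPM was 3.95 and 0.209 in scrambled AMO libraries and 11.4 and 0.604 in U1 AMO libraries, a log2 fold change of 1.54 (SE 0.287), and the groups overlapped, with replicate 1 the higher in both. The rise at chr5:53819208, minus strand, had a log2 fold change of 1.85 (SE 0.368). CPM there was 1.38 and 0.128 in scrambled AMO libraries and 4.63 and 0.535 in U1 AMO libraries, so the groups overlapped again. At chr13:41042862, plus strand, the log2 fold change was 1.56 (SE 0.331), and the groups did not overlap.

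The largest falls included members at both spacings. At chr15:48681568, minus strand, 7 nt from its hexamer, CPM was 10.1 and 8.45 in scrambled AMO libraries and 0.508 and 4.71 in U1 AMO libraries, a log2 fold change of -1.85 (SE 0.267, edgeR adjusted p = 1.0e-08). Both U1 AMO libraries were below both scrambled AMO libraries, though by unequal amounts in the 2 runs. The fall at chr12:80122915, plus strand, also at 7 nt, was -1.81 (SE 0.333). The other 3, at 18 to 23 nt, were chr12:63543089 on the minus strand with -1.27 (SE 0.291), chr19:37983176 on the plus strand with -1.08 (SE 0.321) and chr5:144692311 on the plus strand with -1.02 (SE 0.248). At chr12:63543089 CPM was 1.53 and 7.23 in scrambled AMO libraries and 0.0635 and 4.07 in U1 AMO libraries, so the groups overlapped. At the other named falls they did not. Of the 10 strongest positions, 3 were called in this fit by smaller amounts. chr17:82756878 rose by 0.67 on the log2 scale (SE 0.180, edgeR adjusted p = 0.0047) and chr7:135029509 by 0.84 (SE 0.203, adjusted p = 0.0013), while chr17:25001393 fell by 0.54 (SE 0.182, adjusted p = 0.0438). Both rises were unequal in the 2 runs. From scrambled to U1 AMO, chr17:82756878 went from 122 to 129 CPM in replicate 1 and from 4.90 to 12.3 in replicate 2. For chr7:135029509 this was from 8.42 to 27.7 and from 19.9 to 20.8 CPM.

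All-A positions often stood alone. Positions no more than 24 nt apart on one strand were merged into clusters, and 70915 clusters held an all-A position, of which 64525 held nothing else. No other position was within reach for 44.0% of members, against 25.3% of the other positions and 42.5% of those of exactly 5 A. At 6 to 9 nt it was 50.02% for all-A and 59.6% for the hexamers of 5 A. Members in a cluster led by another hexamer, that is with its strongest position there, numbered 6891, or 6.16%. Of these, 1734 lay in clusters led by AATAAA and 1601 in clusters led by TAAAAA. The share of all-A reads in such clusters ran from 4.12% in U1 AMO replicate 1 to 9.44% in untreated replicate 1.

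The members drew on 71085 separate runs of A, joining places that overlap or abut, and 74.3% of these runs had 1 position. Some runs had positions spread over most of the window. The 5 runs with the most positions had between 27 and 35. The first, on chromosome 11, minus strand, had 35 positions between 113524482 and 113524521, at spacings of 6 to 39 nt from a run of at least 12 A. They held 5459 reads, of which 3368 lay at chr11:113524493. Its CPM differed little over the libraries, with 18.1 and 22.2 in untreated libraries, 21.7 and 22.2 in scrambled AMO libraries, and 19.2 and 19.9 in U1 AMO libraries. Another on chromosome 11, plus strand, had 30 positions between 97484148 and 97484182 and 750 reads. A run on chromosome 13, plus strand, had 29 positions between 90244464 and 90244493 and 3337 reads, with 11.7 and 14.8 CPM in untreated libraries, 15.5 and 11.95 in scrambled AMO libraries, and 10.8 and 11.3 in U1 AMO libraries. On chromosome 3, minus strand, 29 positions between 95792719 and 95792752 shared a run of at least 7 A and held 724 reads. The run that holds chr2:165899420 had 27 positions and 19395 reads, with 83.2 and 110 CPM in untreated libraries and between 55.8 and 64.3 in the 4 AMO libraries. Positions of one run share their DNA and are not independent of each other.

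All-A positions rarely lay near strongly used 3′ ends. There were 10293 clusters whose mean reached 10 CPM, and 97.0% of the members at 6 to 9 nt had none on their strand within 5 kb. This was 87.2% at 15 to 25 nt and 92.3% over all members, against 78.6% of all other positions and 82.2% of the others at 6 to 9 nt. Both strands held similar numbers, 55638 plus and 56157 minus. The share of positions that were all-A ran from 4.13% on chromosome 11 to 6.44% on chromosome X. Which of these positions lie in exons, introns or between genes was not analysed here.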

How the data were processed

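3′ end libraries of V6.5 mouse embryonic stem cells were processed with cutadapt and Bowtie against mm9, per the submitters' processing notes, with versions and filters not given in the sources used here. The authors deposited 1 list per library, with whole-number read counts per stranded position, not normalized, and for each position a hexamer, its distance and a further whole number. The lists agreed on these entries wherever libraries shared a position.

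Lists were pooled by position and members chosen by the hexamer. Members, spacing classes and tests were chosen with earlier results of these data known. CPM used the total reads of each library, chromosome M included, and tests covered positions of every hexamer, chromosome M included. The main test was edgeR 4.0.16 (R 4.3.3) with TMM, filterByExpr and the 3 groups, with Benjamini-Hochberg adjusted p under 0.05 called. DESeq2 1.42.0 was an alternative. Other values used scipy 1.17.1, numpy 2.4.6 and pandas 2.3.3 in Python 3.11.15. In simulated counts for U1 AMO against scrambled AMO, the test found none of the 4-fold changes (0%), 28% of those of 16-fold and 78% of those of 64-fold among 204721 positions, and with the replicate number as a term 10% of 2-fold and 92% of 4-fold changes among 179263. Each size of change was planted at 50 of the tested positions, drawn only from those averaging 1 CPM or more. All-A positions with at least 50 reads had medians between 0.104 and 0.698 CPM in the libraries. The recovery rates thus need not hold for weaker members, where recovery was not tested. The simulation takes the fitted spread as true.

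The replicate number marks a shared run for the AMO groups. Same-numbered AMO libraries deviated together from the means of their groups, with r = 0.71 over 188898 positions with at least 50 reads, and at 0.86 over the 2266 all-A ones. For untreated cells, sequenced in other runs, r was -0.05 against scrambled AMO libraries and -0.07 against those of the U1 AMO, and at all-A positions -0.51 and -0.48, so their numbers were not taken as pairs.

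Named positions, outside chromosomes M and 18 and 1 per cluster, were the 10 with the highest mean CPM and, per comparison, up to 5 called in each direction by log2 fold change with a mean of at least 1 CPM. Alternatives covered scaling, filter, test, thinning, clusters and left-out libraries.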

Additional observations from a re-analysis of the deposited data

How the results depend on the processing

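Depth limits what can be said of most members, since 58.6% had 1 read in total. Comparisons of all-A with all other hexamers kept their direction when any library was left out, but 5 pairs cannot go below an exact p of 0.0625. Leaving out each library gave a log2 ratio of reads per position of -3.66 to -3.29, a difference in 1-read positions of 20.1 to 23.6 points, in downstream A count of 0.866 to 0.907, in spacing of -9.66 to -8.62 nt and in recurrence of -16.3 to -13.6 points. Against the hexamers of exactly 5 A, recurrence turned to 0.387. The share of all-A reads in clusters led by another hexamer rose to 10.1% when clusters joined positions at most 50 nt apart.

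For U1 AMO against scrambled AMO, leaving out each library gave differences in the share of reads of -0.125 to 0.201, of positions -0.652 to -0.475, in downstream A count -0.142 to 0.298 and in spacing -2.88 to 1.55 nt, and over distinct positions the spacing differed by 0.293 nt. For scrambled AMO against untreated, the share of reads ranged from 0.00419 to 0.306 and of positions from -2.55 to 1.73, and the latter was 0.280 after thinning, 0.194 with 1 position per cluster and 0.131 without the members at 6 to 9 nt, an alternative chosen once the data had been seen. For U1 AMO against untreated the ranges were 0.0301 to 0.356 and -3.11 to 1.16, and the share of positions was 0.0109 after thinning. The causes were not tested.

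All-A positions called are given with their share of those tested and the share of all positions called. For U1 AMO against scrambled AMO they numbered 9 without filterByExpr (0.0591% against 0.643%), 1 with clusters as features (0.0326% against 0.666%), 4 in the 4 libraries alone (0.145% against 1.19%), 102 with the replicate block in these 4 (3.69% against 8.08%), 4 with DESeq2 (0.116% against 1.21%), 8 and 6 without untreated replicates 1 and 2 (added after seeing the data, 0.145% against 1.44% and 0.159% against 1.53%), and 0 to 2 without one library compared, where at most 0.235% of all were called. For scrambled AMO against untreated they were 85 without the filter (0.558% against 0.377%), 33 with DESeq2 (0.957% against 0.785%) and 0 to 105 without one library, the highest being 1.90% against 5.29%. For U1 AMO against untreated they were 233 without the filter (1.53% against 2.27%), 25 with clusters (0.815% against 4.89%), 112 with DESeq2 (3.25% against 5.06%), 0 of all and of all-A positions with the replicate block in 6 or 4 libraries and in the 4 libraries alone, 17 and 22 without scrambled AMO replicates 1 and 2 (added, 0.342% against 1.19% and 0.536% against 1.51%), and 7 to 291 without one library compared, the highest being 5.27% against 13.97%. Every other count was within 1.5 times the main one.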
